A study of Mus musculus with 4 samples.

Results

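The genes described here are 10 inhibitors of MAP kinase and Ras signalling: the dual-specificity phosphatase genes Dusp1, Dusp2, Dusp4, Dusp5, Dusp6 and Dusp10, and the Sprouty family genes Spry1, Spry2, Spred1 and Spred2. They were taken by name, as every feature of the array that carries 1 of these gene names, and are 10 of the 27144 named genes with values. They were read by 16 probes. Of the 16, 12 were well above local background on all 4 arrays, 1 on 3 arrays and 3 on none, so 9 of the 10 genes were measured and Spry2 was not.

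Transcripts of CD4+ T cells were measured on single-colour Agilent mouse arrays, and the 4 conditions are naive T and iTreg at 3 h of either genotype, WT or Nr4a-TKO, with a single array per condition. Nr4a-TKO cells lack the nuclear receptors Nr4a1, Nr4a2 and Nr4a3, through floxed alleles of Nr4a1 and Nr4a2 and a germline null allele of Nr4a3, and the Cre that acts on the floxed alleles is not given in the sources used here. All mice were C57BL/6J, of both sexes and 6 to 8 weeks of age by the methods. Naive T cells were sorted from spleen and lymph nodes as CD4+ CD25low CD44low CD62L-high Foxp3- cells. They came from irradiated Rag2-/- recipients 6 weeks after marrow transfer, which have no mature T or B cells of their own. WT cells came from recipients of WT marrow, whereas Nr4a-TKO cells came from recipients of WT and Nr4a-TKO marrow mixed 1 to 1, so the genotypes also differ in the host in which the cells matured. The Nr4a-TKO donors are stated to carry the Foxp3 hCD2-hCD52 reporter allele, and the sorted cells of both genotypes were Ly5.2+. The iTreg cells (T cells under conditions that induce Foxp3+ regulatory T cells) had been cultured for 3 h on plates coated with anti-CD3 at 2 µg/ml. The medium held anti-CD28 at 0.5 µg/ml, IL-2 at 10 ng/ml, antibodies that block IFN-γ and IL-4, and TGF-β1 at 0.2 or 0.5 ng/ml, and which of these 2 doses was used on the arrays is not given. Whether cells of several mice were pooled for an array is not given either.

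Signals from the T cell receptor and CD28 activate Ras, which drives the kinases Raf, MEK and ERK, and parallel cascades activate the stress kinases JNK and p38. Dual-specificity phosphatases of the MAP kinase phosphatase group switch these kinases off by removing phosphate from both the threonine and the tyrosine of their activation loop. Sprouty and Spred proteins act further upstream and restrain the activation of Ras and Raf. Many genes of both kinds are themselves induced by ERK, which makes them part of a delayed negative feedback. Transcript levels do not give the activity of the kinases, which was not measured on these arrays.

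All 4 arrays shared 1 slide and 1 scan, with 65% to 67.7% of the probes well above background and no saturated spot. Values are log2 intensities after background correction and quantile normalization across the 4 arrays. With 1 array per condition there is no replicate and no test, and the number of arrays limits the precision. A difference is called here where it exceeds 2-fold, that is 1 on the log2 scale. Probes printed on at least 5 spots put the SD of such a log2 difference at 0.18, or at 0.34 for probes below a log2 level of 6, and at 0.25 where 2 changes are subtracted. That spread is technical and leaves out the variation between mice and cultures. Levels of different probes are not compared with each other, because each probe has its own response.

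As a check of the labels, the targeted genes come first. Nr4a1 was at 7.05 in WT naive T, 8.39 in Nr4a-TKO naive T, 11.34 in WT iTreg at 3 h and, at that time, 11.82 in Nr4a-TKO, so its probe was not lower on either array labelled Nr4a-TKO. The Nr4a2 probe with the higher level was 1.38 higher on the log2 scale on the array labelled Nr4a-TKO at 3 h, while 2 of the 3 Nr4a3 probes were lower there, by -1.86 and -1.47, and the last one differed by 0.19. Whether these probes lie within the deleted parts is not given, so that a probe outside them would check nothing. Directions between the genotypes below therefore rest on the labels.

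The cell type labels were checked in the same way. Of the 5 T cell identity genes, the 4 on the array (Cd3e, Cd3g, Cd4 and Lck) were well above background throughout. Of 7 genes of naive T cells, 6 were more than 2-fold lower after 3 h of culture in WT and 7 in Nr4a-TKO, beside 9.01% and 8.42% of all genes. Of 6 activation genes 5 were more than 2-fold higher in each, beside 8.57% and 8.01% of all genes. Between the genotypes, 1 of these 6 was more than 2-fold higher and 1 lower in Nr4a-TKO at each stage. At 3 h they were Il2 (1.20) and Tnfrsf9 (-3.60), where 3.68% of all genes were apart. In naive T they were Irf4 (1.25) and Tnfrsf9 (-1.86), where 3.53% were apart. The 7 genes of B cells and antigen-presenting cells were well above background on every array, with a summed log2 level of 10.24 in WT naive T, 10.88 in Nr4a-TKO naive T, 9.88 in WT iTreg at 3 h and again 10.88 in those of Nr4a-TKO. Set against WT, 7 of the 7 were higher in the cultured cells labelled Nr4a-TKO, with a median log2 difference of 0.86, and 6 of the 7 in the naive cells, with a median of 0.70. More than 2-fold higher were 3 of the 7 at 3 h and 1 in naive T, beside 1.77% and 1.9% of all genes. Ms4a1 differed by 0.07 at 3 h and 0.10 in naive T, and Cd79b by -0.56 in naive T. Of 6 myeloid genes, 4 were lower and 2 higher in Nr4a-TKO naive T, with a median of -0.31 (Cd14 -2.70). Of the 5 measured at 3 h, 4 were lower and 1 higher, with a median of -0.11. The part of B cells, antigen-presenting cells or myeloid cells in the differences between genotypes described here was not tested.

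Sequences are shown for the genes on which the differences between conditions turn. Dusp1, Dusp6 and Spry1 are each read by a single probe of 60 bases, so their values rest on that one sequence, of which the first 30 bases are given, as deposited in the array files and with no part marked. On mm9 these probes lie at chr17:26642624-26642683, chr10:98729985-98730044 and chr3:37543194-37543253.
Dusp1 probe: ccagtgtaggtttgtagctttcagttatcg
Dusp6 probe: catttggtggatgcaacaggttgagaggaa
Spry1 probe: agctgagtatttccaacccttcctgtgttt

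Promoters were read from RefSeq on GRCm38.p6, where 9 of the 10 genes had an entry (Dusp4 had none). In the window from 250 bases before to 50 bases after the start, on both strands, 6 motifs were searched. The Nr4a monomer site AAAGGTCA was in none of the 9 and in 1.51% of all 32851 promoters. AP-1 (TGANTCA, in 7.81% of all promoters), Egr (GCGTGGGCG, 0.612%) and Ets (CCGGAAGT, 3.89%) were also in none of the 9. The cyclic AMP response element TGACGTCA, in 1.79% of all promoters, was found once, in Dusp1, from base -143 to -136. The CArG box of serum response factor, in 1.63% of all promoters, was found side by side in Dusp5, from -82 to -73 and from -72 to -63. The bases up to -1 of these promoters are shown, at chr17:26508473-26508622 on the minus strand for Dusp1 and chr19:53529025-53529144 on the plus strand for Dusp5, with the motifs in capitals. No matched motif overlapped another. A match describes the letters of the window and is no evidence of binding in these cells.
Dusp1 promoter: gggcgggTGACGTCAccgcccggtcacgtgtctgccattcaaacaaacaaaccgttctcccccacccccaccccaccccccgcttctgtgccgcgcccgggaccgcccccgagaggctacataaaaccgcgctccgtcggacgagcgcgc
Dusp5 promoter: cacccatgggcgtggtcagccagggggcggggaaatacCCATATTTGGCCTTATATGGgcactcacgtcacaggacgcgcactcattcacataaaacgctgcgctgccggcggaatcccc

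After 3 h of culture, 5 of the 9 measured genes were more than 2-fold higher in WT (Dusp2, Dusp4, Dusp5, Spry1 and Spred1) and 1 was more than 2-fold lower (Dusp10). Of all 19589 genes compared in WT, 17.6% were more than 2-fold apart, 8.57% being higher and 9.01% lower after culture. In Nr4a-TKO the 5 genes above were again more than 2-fold higher, and Dusp10 and Dusp1 were more than 2-fold lower, where 16.4% of 20001 genes were apart, 8.01% higher and 8.42% lower. The median log2 change of the 9 genes was 1.37 in WT and 1.44 in Nr4a-TKO, beside -0.06 and -0.02 over all genes. The changes in WT and in Nr4a-TKO come from separate pairs of arrays. In bulk RNA, fewer cells that express a gene and less of its RNA per cell cannot be told apart.

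**Figure D1:**
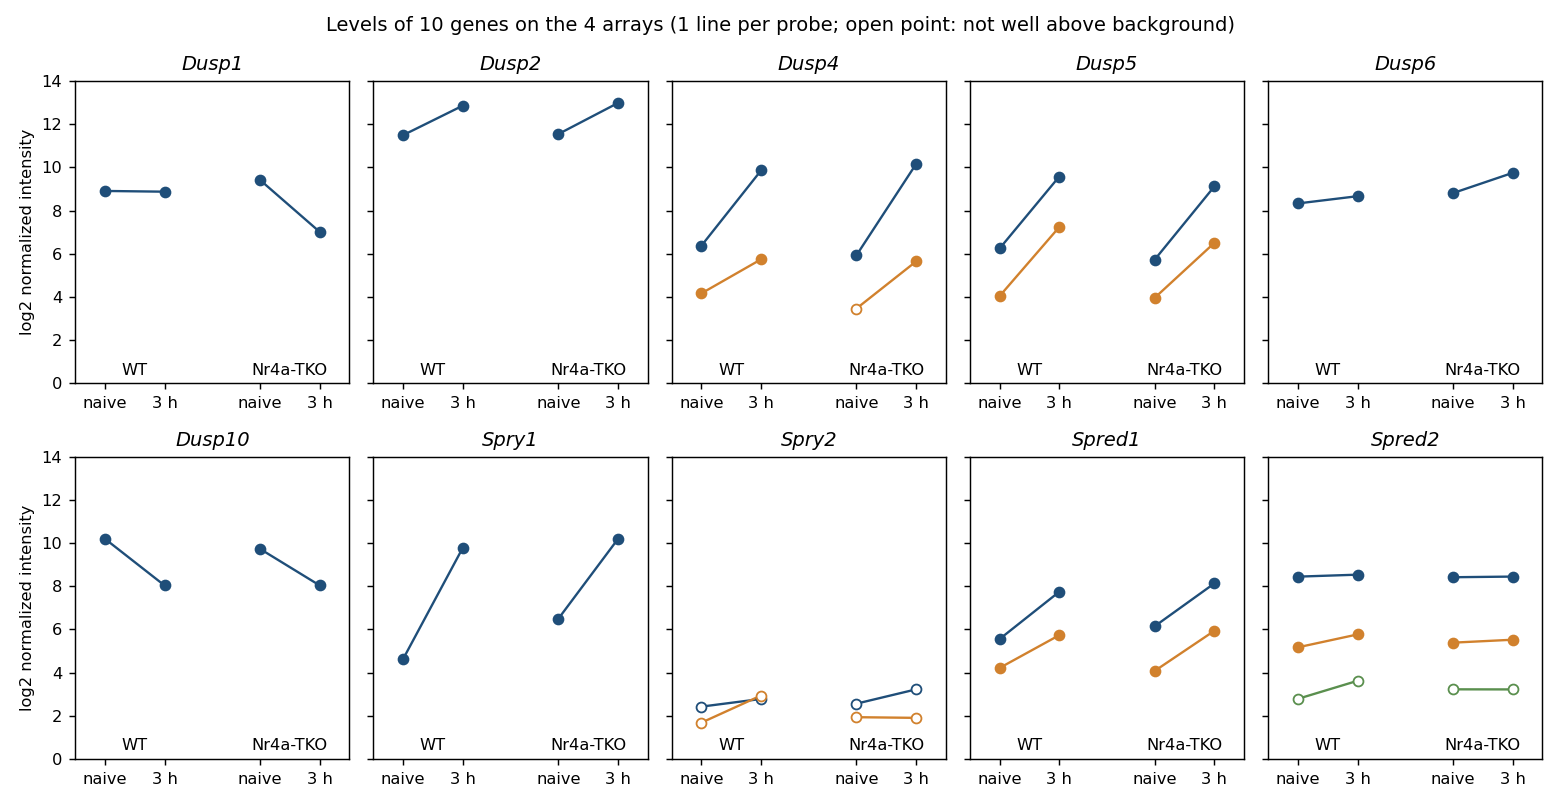
Log2 normalized intensity (vertical axis) of each probe of the 10 genes on the 4 arrays, with naive T and iTreg at 3 h joined by a line within each genotype and 1 colour per probe of a gene. Open points were not well above background: all those of Spry2, 1 Spred2 probe, and 1 Dusp4 probe in Nr4a-TKO naive T. Dusp1 is level in WT (-0.03) and lower after culture in Nr4a-TKO (-2.40), while Spry1 is higher after culture in both, from starting levels of 4.63 and 6.49.

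The 4 nuclear phosphatases, Dusp1, Dusp2, Dusp4 and Dusp5, differed in how they changed. Dusp1 (MKP-1), which acts on p38, JNK and ERK, was at 8.91 in WT and 9.42 in Nr4a-TKO naive T, and at 8.87 in WT and 7.01 in Nr4a-TKO iTreg at 3 h. The WT levels differed by less than the array SD, Nr4a-TKO naive T was above them, and Nr4a-TKO iTreg at 3 h was apart below all of these. That array was also the lowest in the processed intensities, before any normalization between arrays, at 393, 547, 506 and 122 in the same sequence of conditions. The WT change was -0.03 on the log2 scale, against -2.40 in Nr4a-TKO, a 5.30-fold fall. The Nr4a-TKO change was 164th from the lowest of the 17676 genes that were well above background on both arrays. No other member changed by more than 2-fold in 1 genotype and by less in the other.

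Dusp2 (PAC-1), a nuclear phosphatase of activated lymphocytes, was at 11.49 in WT and 11.54 in Nr4a-TKO naive T, and at 12.86 in WT and 12.98 in Nr4a-TKO iTreg at 3 h. The genotypes were within 0.12 of each other at both stages, less than the array SD. Its change was 1.37 in WT and 1.44 in Nr4a-TKO, or 2.58-fold and 2.71-fold.

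Dusp4 (MKP-2), a nuclear phosphatase of ERK, JNK and p38, was at 6.37 in WT naive T and 5.93 in Nr4a-TKO naive T, and at 9.86 and 10.16 after 3 h. Both 3 h levels were far above both naive levels. The change was 3.49 in WT, 22nd from the highest of 17285 genes, and 4.23 in Nr4a-TKO, 5th from the highest of 17676. Its other probe, which lies at chr8:35882045-35882104 on mm9, is dimmer. That probe read 4.16 in WT naive T and 5.74 in WT iTreg at 3 h, a change of 1.58 and smaller than on the first probe. It was not well above background in Nr4a-TKO naive T and read 5.64 in Nr4a-TKO iTreg at 3 h, so the change there was at least 4.54-fold. The direction was shared by the 2 probes, while the size differed in WT and cannot be compared in Nr4a-TKO.

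Dusp5, a nuclear phosphatase specific for ERK, was at 6.25 in WT and 5.73 in Nr4a-TKO naive T, and at 9.58 in WT and 9.12 in Nr4a-TKO iTreg at 3 h. Nr4a-TKO was below WT at each stage and under 2-fold, by -0.46 at 3 h, over 2 array SDs, and by -0.52 in naive T, less than 2 of the SDs that hold below a log2 level of 6. The change was 3.33 in WT and 3.39 in Nr4a-TKO. The second probe read 4.04, 3.96, 7.24 and 6.50 in the same order of conditions, and its changes of 3.20 and 2.54 were again more than 2-fold in both genotypes. On that probe Nr4a-TKO differed from WT by -0.08 in naive T and by -0.73 at 3 h. This is the gene whose promoter holds the CArG boxes printed above.

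The cytoplasmic phosphatase Dusp6 (MKP-3), which is selective for ERK, changed less. It was at 8.33 in WT and 8.81 in Nr4a-TKO naive T, and at 8.66 in WT and 9.74 in Nr4a-TKO iTreg at 3 h. The array of Nr4a-TKO iTreg at 3 h was the highest, and neighbours among the other levels were less than 2 array SDs apart. The change was 0.34 in WT and 0.94, or 1.91-fold, in Nr4a-TKO. The second value passed 2-fold where processed intensities were scaled to their 75th percentile (1.14) and in the authors' deposited values (1.16).

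Dusp10 (MKP-5), which is selective for JNK and p38, was the member that fell in both genotypes. It was at 10.20 in WT and 9.73 in Nr4a-TKO naive T, and at 8.04 in WT and 8.04 in Nr4a-TKO iTreg at 3 h. Both naive levels were higher than both 3 h levels, and the 3 h levels were equal within the array SD. The fall was 4.48-fold in WT and 3.23-fold in Nr4a-TKO.

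Of the Sprouty genes, Spry1, whose product restrains Ras to ERK signalling downstream of receptors, had the largest change of the 10 genes in WT. It was at 4.63 in WT and 6.49 in Nr4a-TKO naive T, and at 9.78 in WT and 10.19 in Nr4a-TKO iTreg at 3 h, with processed intensities of 19.5, 78.0, 1027 and 1275. All 4 levels were more than 2 array SDs apart, with WT naive T the lowest. The change was 5.15, or 35.5-fold, in WT, which was 4th from the highest of 17285 genes, and 3.70, or 13.0-fold, in Nr4a-TKO. The lowest detected value on the array of WT naive T was 3.45, not far below the level of Spry1 there, and the WT change ranged from 3.64 with a normexp offset of 50 to 5.54 in the deposited values. Neither of the 2 Spry2 probes was well above background on any array, and no difference is given for it.

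Spred1, an inhibitor of Ras that recruits neurofibromin, was at 5.56 in WT and 6.15 in Nr4a-TKO naive T, and at 7.75 in WT and 8.13 in Nr4a-TKO iTreg at 3 h. Its change was 2.19 in WT and 1.98 in Nr4a-TKO, and a second probe gave 1.52 and 1.86. Both probes placed both 3 h levels above both naive levels. Spred2, which acts in the same way, was at 8.44, 8.42, 8.54 and 8.45 in the same order, and no neighbours in that order of levels differed beyond the array spread. A second Spred2 probe gave changes of 0.60 (WT) and 0.14 (Nr4a-TKO), and the last one was not well above background on any array.

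**Figure D2:**
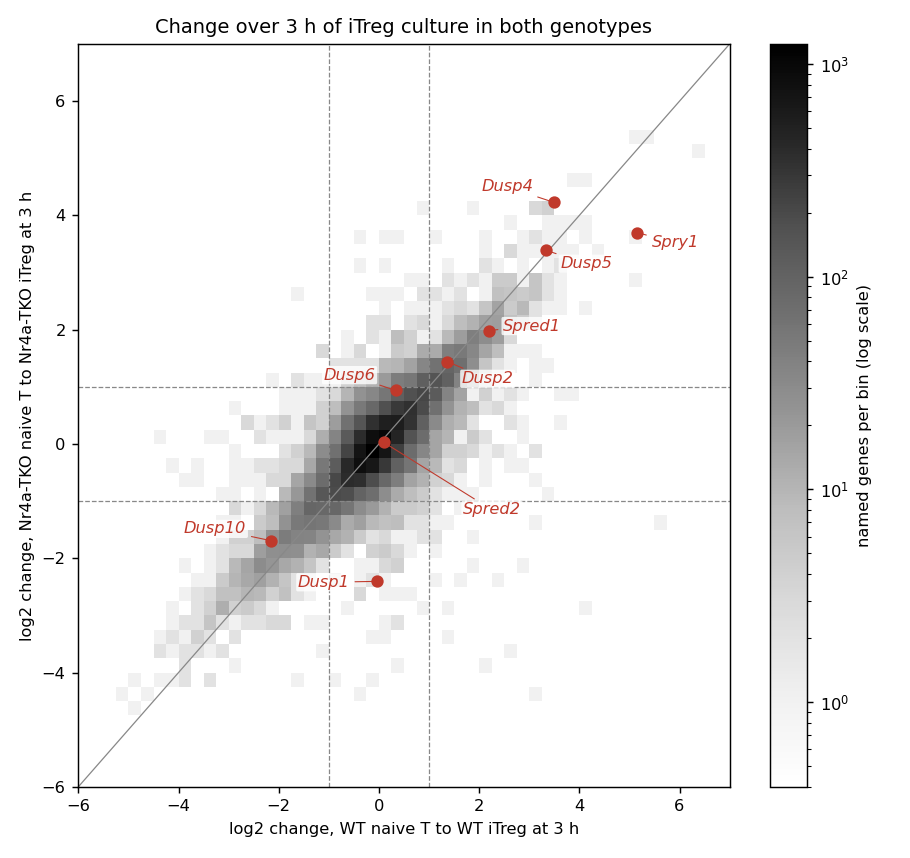
Log2 change over the 3 h of culture in WT (horizontal axis) and in Nr4a-TKO (vertical axis), with grey bins for the 18789 genes that have both values (darker for more genes, log scale), red points for 9 of the 10 genes, a solid line of equal change and dashed lines at 2-fold. Dusp2, Dusp5 and Spred2 lie close to the line of equal change, while Dusp1, at -0.03 and -2.40, and Spry1, at 5.15 and 3.70, lie below it.

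To ask how the genotypes differed at each stage, the array labelled Nr4a-TKO was set against that labelled WT. These differences share their arrays with the changes above and are not independent of them. At 3 h, 1 member was more than 2-fold higher in Nr4a-TKO (Dusp6) and 1 more than 2-fold lower (Dusp1), where 3.68% of 19821 genes were apart, 1.77% higher and 1.91% lower. Dusp1 differed by -1.86, a level 3.63-fold lower in Nr4a-TKO and 43rd from the lowest of 17703 genes. Dusp6 differed by 1.08, or 2.11-fold, which fell to 0.99 with a normexp offset of 50. The 7 others lay between -0.46 (Dusp5) and 0.40 (Spry1), and the median of the 9 was 0.12, beside 0.00 over all genes.

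In naive T, before the culture, 1 member was more than 2-fold higher in Nr4a-TKO (Spry1) and 0 were more than 2-fold lower, with no test behind either count, where 3.53% of 19497 genes were apart, 1.9% higher and 1.63% lower. Spry1 differed by 1.85, or 3.61-fold, and was 38th from the highest of 17530 genes. That difference was 0.90 with a normexp offset of 50, under 2-fold, and 2.05 in the deposited values. The 8 others lay between -0.52 (Dusp5) and 0.59 (Spred1). The second Spred1 probe gave -0.14, so the 2 probes of this gene differed in sign in naive T. Dusp1 and Dusp6 were higher in Nr4a-TKO naive T by 0.51 and 0.48, over 2 array SDs and under 2-fold. Beside the Spry1 difference stand those of the B cell genes given above, of Nr4a1 (1.34) and Irf4 (1.25), and, downwards, of Tnfrsf9 (-1.86). What part these have in it was not tested.

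**Figure D3:**
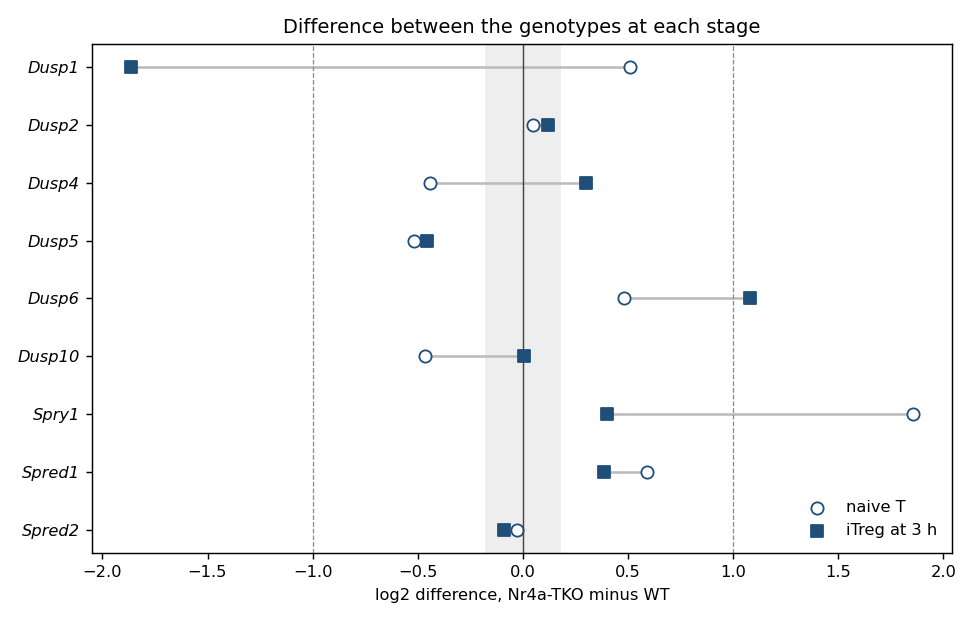
Log2 difference, Nr4a-TKO minus WT (horizontal axis), of the 9 measured genes in naive T (open circles) and in iTreg at 3 h (filled squares), with dashed lines at 2-fold and a grey band of 1 SD of a difference between arrays (0.18) on each side of 0. Dusp1 lies at 0.51 in naive T and at -1.86 at 3 h, Dusp6 passes 2-fold at 3 h, and Spry1 passes it in naive T.

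The question whether the change during culture differed with genotype was put by subtracting the change in WT from that in Nr4a-TKO. For 2 of the 9 members the change in Nr4a-TKO was lower by more than 2-fold (Dusp1 and Spry1) and for 0 it was higher by more than 2-fold, again with no test, where of 16744 genes 3.27% were apart, 1.55% lower and 1.72% higher. The difference was -2.37 for Dusp1, 28th from the lowest of these genes, and between -2.51 and -2.00 under the other settings tried. For Spry1 it was -1.45, and between -1.67 and -0.52 under the other settings, which spans the 2-fold mark. The other 7 lay between -0.21 (Spred1) and 0.74 (Dusp4). For Dusp5 the 2 probes gave 0.06 and -0.65, and for Spred1 they gave -0.21 and 0.34, so neither gene has a settled sign here.

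For the member with the highest and the one with the lowest change in WT, the genes of the most similar pattern were sought among 15646 genes well above background on all 4 arrays. The measure was the Euclidean distance between the 4 log2 values after each gene's own mean was subtracted, and 4 conditions are few for such a measure. The pattern nearest to Spry1 was that of Nr4a1, one of the targeted genes, at a distance of 0.67. Next came Tnfsf11, the cytokine RANKL, at 0.81, followed by Bcl2a1d, a survival gene of the Bcl2 family. The distance used the naive T values too, so a difference there in the direction of Spry1 is part of the choice. In Nr4a-TKO and WT naive T, Tnfsf11 was at 5.60 against 4.38 and Bcl2a1d at 8.23 against 7.77. For Dusp10 the nearest were Saraf, a regulator of store-operated calcium entry, at 0.09, Itpkc, an inositol trisphosphate kinase, at 0.10, and Dhrs7, a short-chain dehydrogenase, at 0.11. Saraf, at 10.77 in WT naive T and 8.56 in WT iTreg at 3 h, changed by -2.22.

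Other phosphatases of the same groups had changes between -1.01 and 1.36 on their brightest probes, where both arrays were well above background. Of the 4 other MAP kinase phosphatase genes, 3 were measured, and Dusp9 was not well above background on any array. Dusp16, which acts on JNK and p38, was not well above background in WT naive T, and its change was at least 2.24-fold in WT and 1.36 on the log2 scale in Nr4a-TKO. Dusp7, a cytoplasmic ERK phosphatase, had changes of -1.01 (WT) and -0.70 (Nr4a-TKO). Of 9 atypical dual-specificity phosphatase genes, which lack the kinase-binding domain, Dusp12 and Dusp22 passed 2-fold upwards in WT and Dusp19 downwards, to a level below background. Of all genes in WT, 8.57% passed upwards and 9.01% downwards. In Nr4a-TKO, Dusp12 passed 2-fold among the 7 with both arrays well above background, with changes of 1.19 in WT and 1.34 in Nr4a-TKO. Dusp3 was not measured, and Dusp18 was below background at 3 h, so its fall in Nr4a-TKO has no upper limit here. For Dusp14, a phosphatase of T cell signalling, the brightest probe changed by -0.65 and -0.54, while 1 of its 2 dimmer probes gave -0.69 and 0.06 and the other gave 0.61 and 2.67. Among the other Sprouty family genes, Spry3 and Spry4 were not well above background on any array, and Spred3 changed by -0.05 and -0.06.

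The kinases and exchange factors that these inhibitors act on were described in the same way. Of the 15 genes from Rasgrp1 to ERK, all measured and with a median of -0.21 in WT, Mapk3, the gene of ERK1, passed 2-fold downwards in WT. It changed by -1.13 in WT, against -0.79 in Nr4a-TKO. Braf, a Raf kinase, differed by -1.21 between the genotypes in naive T on its brightest probe, while its other 4 probes lay between -0.12 and 0.32, so that the difference was read by 1 of 5 probes.

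Of the 10 JNK and p38 kinase genes, 2 passed 2-fold in each genotype (Map2k3 higher and Map2k6 lower), beside the 17.6% and 16.4% of all genes given above. Map2k3, an activating kinase of p38, went from 8.39 to 12.47 during the culture of WT cells and from 8.23 to 12.81 during that of Nr4a-TKO cells. Map2k6, the second such kinase, was not well above background at 3 h, a fall of at least 4.86-fold in WT and at least 4.82-fold in Nr4a-TKO. The other, dimmer Map2k6 probe changed by -0.07 and -0.35, whereas all 4 Map2k3 probes were more than 2-fold higher in both genotypes. Mapk12, a p38 kinase, was 1.09 higher in Nr4a-TKO naive T. The stress-induced Gadd45 genes, which bind an upstream p38 kinase, split as well: Gadd45b changed by 3.67 and 3.20 and Gadd45a by -2.32 and -1.93, in WT and Nr4a-TKO. Gadd45g was 1.21 higher in Nr4a-TKO at 3 h.

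Among 8 genes of Ras GTPase-activating proteins, which return Ras to its inactive form, Rasa3 and Rasal3 were more than 2-fold lower after culture in both genotypes. Over all genes 9.01% were lower in WT and 8.42% in Nr4a-TKO. Rasa3 was at 10.63 in WT and 10.68 in Nr4a-TKO naive T, and at 7.66 in WT and 9.09 in Nr4a-TKO iTreg at 3 h. Its difference between the genotypes at 3 h was 1.43 on this probe, and 0.79 and 0.20 on its other 2. The changes of Rasal3 were -2.15 (WT) and -1.87 (Nr4a-TKO). Rasa2 passed 2-fold upwards in Nr4a-TKO only, where 8.01% of all genes did. It was at 1.32 against 0.64 in WT, and its 3 other probes in Nr4a-TKO lay between 0.73 and 0.88.

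The 15 genes known to respond to ERK, of which 14 were measured in WT, were divided. In WT 6 passed 2-fold upwards (Egr1, Egr2, Egr3, Fosl1, Myc and Phlda1) and 2 downwards (Fos and Fosb), and in Nr4a-TKO 5 and 1. Over all genes the shares were 8.57% upwards and 9.01% downwards in WT, and 8.01% and 8.42% in Nr4a-TKO. The zinc finger gene Egr2 had changes of 2.82 (WT) and 2.44 (Nr4a-TKO), and Myc of 2.35 and 1.82. Fos, an immediate early AP-1 gene, changed by -2.39 and -2.73. At 3 h, where 3.68% of all genes were more than 2-fold apart between the genotypes, the 14 genes well above background on both arrays differed by -0.66 (Myc) to 0.59 (Fosl1), all under 2-fold. For Ier3, below background in WT, only a bound was obtained. In naive T, Fosl1 was not well above background in WT and was at least 4.55-fold higher in Nr4a-TKO.

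**Figure D4:**
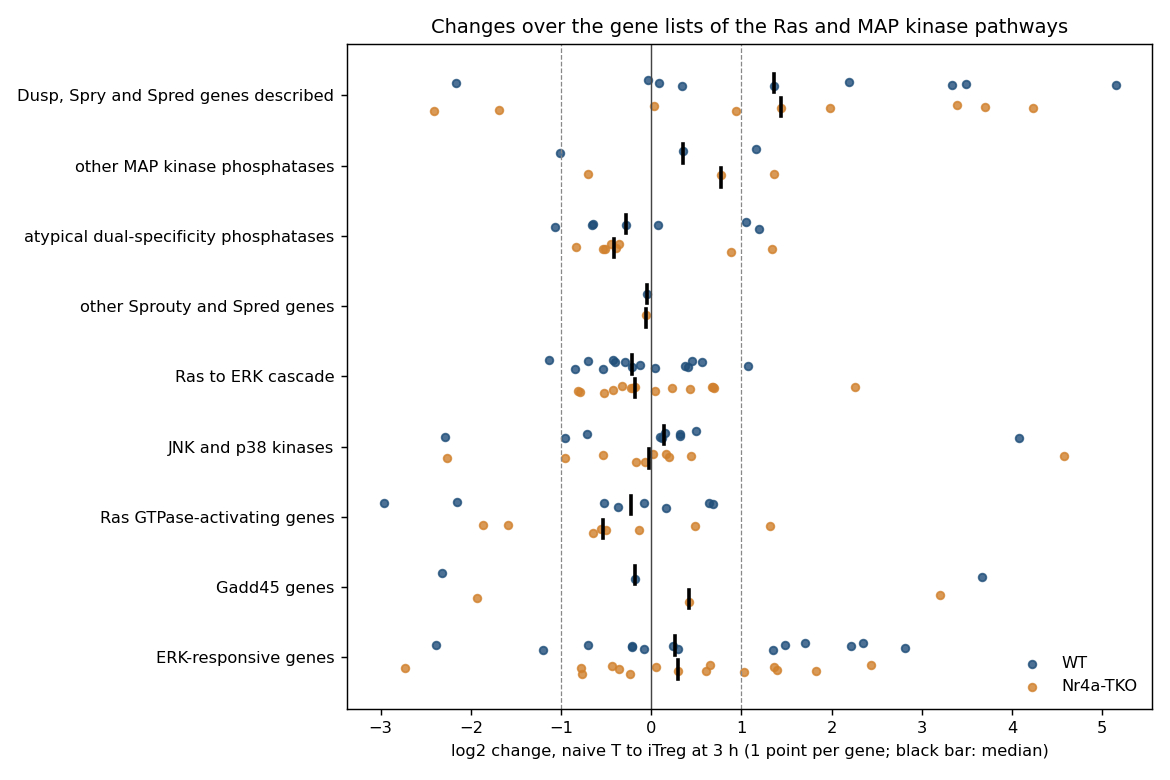
Log2 change over the 3 h of culture (horizontal axis) of each measured gene of the 10 described and of 8 related lists, in WT (blue) and Nr4a-TKO (orange), with black bars at the medians and dashed lines at 2-fold, where a gene below background on 1 array is drawn at its bound. The medians of the described genes, 1.37 and 1.44, lie to the right of 2-fold, and those of the 8 other lists lie within it. The genes and lists were chosen with earlier results of these data known, so this contrast is a description only.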

How the data were processed

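The authors deposited the output of Agilent Feature Extraction 11.5.1.1 for each array, with the mean intensity of every spot, its local background, a processed intensity and detection flags, and a value table on the log2 scale. Probe coordinates are on mm9 per the file headers. The methods name RMA in GeneSpring, whereas the deposited log2 table was close to processed intensity scaled to the 75th percentile, and it served as an alternative. Mean intensities were corrected with normexp (offset 0), quantile-normalized across the 4 arrays, put on the log2 scale and averaged over spots in limma 3.58.1 (R 4.3.3), without control and outlier spots. Python 3.11.15, pandas 2.3.3, numpy 2.4.6 and matplotlib 3.10.9 did the rest. A gene took its probe with the highest mean. A probe not well above background on 1 of 2 arrays was raised to that array's lowest detected value, between 3.07 and 3.45, which gives a bound. A probe below background on both gave no difference, and a difference of changes needed all 4 arrays. Named are the 10 genes, genes past 2-fold in the lists of related phosphatases, inhibitors, kinases and ERK-responsive genes, and the 3 nearest patterns. Genes of the cell type lists past 2-fold are not all named. The members and lists were chosen with earlier results of these data known. The counting was tested on simulated data. Alternatives were 2 other scalings, 2 background corrections, the mean of all probes, 2 filters, and thresholds of 1.5-fold and 3-fold. Proteins were not analysed here, and 1 gene of a list is not reported here.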

Additional observations from a re-analysis of the deposited data

How the results depend on the processing

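No paired analysis was possible because each condition has 1 array. The members more than 2-fold apart numbered 6 for the change in WT, 7 for that in Nr4a-TKO, 2 between the genotypes at 3 h, 1 in naive T and 2 for the difference of the changes. With a normexp offset of 50, which compresses low intensities, these last 3 counts became 1 (Dusp1), 0 and 1 (Dusp1). With no background correction the last became 1 (Dusp1). With a 3-fold threshold the count at 3 h and that of the difference of changes became 1 (Dusp1). Over all genes at 3-fold, 109 were higher and 169 lower at 3 h, and 58 and 75 in the difference of changes. For the changes during culture, Dusp2 (2.58-fold and 2.71-fold) did not pass 3-fold, and Dusp6 in Nr4a-TKO (1.91-fold) passed 1.5-fold. The count for the change in Nr4a-TKO became 8, Dusp6 being added, with scaling to the 75th percentile and in the deposited values. With a 1.5-fold threshold, 2 members passed in naive T (Spry1 and Spred1) and 4 in the difference of changes (Dusp4 and Dusp6 higher, Dusp1 and Spry1 lower). Over all genes at 1.5-fold, 989 were higher and 1016 lower of 19497 in naive T. In the difference of changes, 1123 were higher and 929 lower of 16744. Of 315 values of single members under the alternatives, 6 crossed 2-fold and 8 changed sign, none of them a value past 2-fold. The 6 concern Spry1 (3), Dusp6 (3) and no other member. Over all genes, the numbers higher and lower than 2-fold at 3 h were 350 and 379, against 64 and 91 with an offset of 50, 143 and 159 without background correction, 545 and 513 with scaling to the 75th percentile, 564 and 527 in the deposited values, 205 and 182 with detection required on both arrays, and 754 and 720 with no filter. Signal over background limits Spry1 in WT naive T, the dimmer probes of Dusp4, Dusp5 and Spred1, and Spry2 on every array.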
